A study of Mus musculus with 12 samples.

Results

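Dendritic cells lacking interleukin 2 (IL-2) were compared with wild-type dendritic cells after both had been given curdlan for 6 h. The comparison used 6 of the 12 arrays of the study, chosen by their titles: 3 IL2 knockout arrays and 3 wild-type arrays, all curdlan-treated. The remaining arrays, 3 per genotype, held cells left without curdlan. Cells had been grown from mouse bone marrow for 7 days with GM-CSF at 200 ng/ml and selected with CD11c microbeads. The purity given in the labels was above 95%. Every array, the wild-type ones included, carries the strain label B6.129P2-Il2tm1Hor/J, so genotype rests on the genotype label and the title. No label says that the arrays of a group stand for different animals; the p-values reflect only the spread between these particular samples. GM-CSF cultures hold cells with dendritic cell and macrophage features together, which limits them as a model of 1 cell type, and in such bulk samples fewer cells of a type and less RNA per cell cannot be told apart. Each value is a log2 expression level of 1 probe set per gene, so a difference of 1 is a factor of 2.

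Curdlan is a beta-glucan that binds Dectin-1 (gene Clec7a) on myeloid cells. Dectin-1 signals through Syk and Card9 to NF-kB and through calcineurin to NFAT, and NFAT drives transcription of Il2 in T cells and in dendritic cells that meet fungal ligands. IL-2 binds a receptor of alpha (Il2ra, CD25), beta (Il2rb) and gamma (Il2rg) chains, which signals through JAK kinases to STAT5. The study asked about the part of IL-2 signalling in the physiology of these cells, and its title concerns apoptosis of terminally mature cells.

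The 12 arrays had medians between 6.59 and 6.64 and lower quartiles between 5.08 and 5.15, and the median gene had a mean of 6.96. The curdlan-treated arrays correlated with each other at 0.991 to 0.996, and 0 array pairs had identical values. Along the first principal component of those 6 arrays, which held 40.9% of the variance, knockout arrays lay at 12.3, 15.7 and 0.27 and wild-type arrays at 6.11, -17.5 and -16.9, so wild-type array 1 lay among the knockout arrays. Sex differed within both groups. Xist, transcribed from the inactive X chromosome of female cells, gave 12.45, 11.91 and 5.18 in knockout arrays 1 to 3 and 5.63, 12.32 and 12.51 in wild-type arrays 1 to 3. Eif2s3y, on the Y chromosome, gave 4.17, 8.41 and 9.87 in the knockout and 9.39, 4.46 and 4.42 in the wild type, and knockout array 2 thus carried both signals. The arrays of a group therefore did not all come from 1 animal. With Eif2s3y as a covariate, chosen after the data were seen, 88 genes were called, 81 of them among the 124.

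More genes were lower than higher in curdlan-treated knockout cells. Of 19937 genes, 124 passed an adjusted p of 0.05 (limma, Benjamini-Hochberg), which is 0.622% of the genes. Of these, 103 were lower in the knockout (0.517%) and 21 were higher (0.105%). All 124 had 3 knockout arrays on one side of the 3 wild-type arrays; over all genes, the knockout arrays lay wholly below in 6.84% and wholly above in 7.71%. The called differences were mostly small, with a smallest size of 0.31 and a median size of 0.59, and 23 exceeded 2-fold, 21 lower and 2 higher (Scarf1 and C2). The median difference over all genes was 0.02. At an unadjusted p under 0.05, the level used below to describe lists, 6.13% of all genes were lower in the knockout and 5.44% higher.

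**Figure D1:**
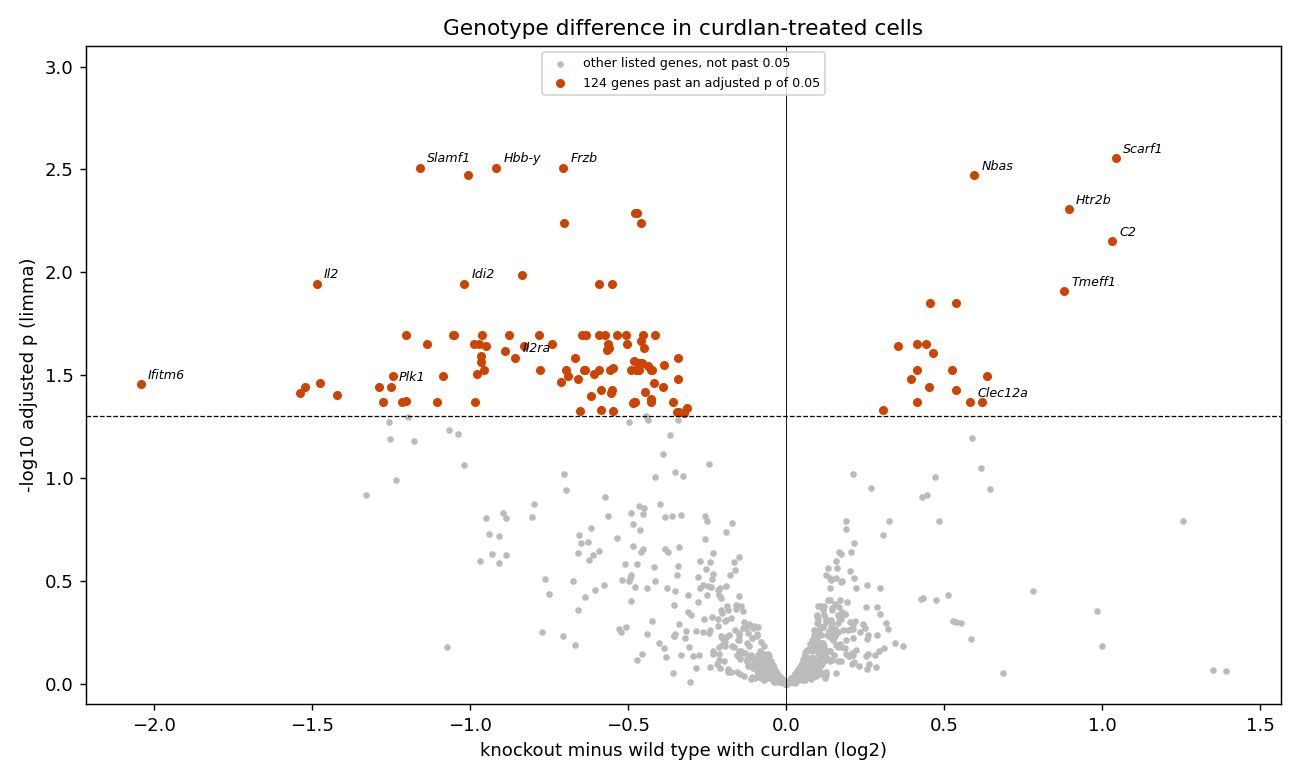
Knockout minus wild type with curdlan (x, log2) against -log10 of the adjusted p (y, limma) for the 124 called genes (red) and for the other members of the gene lists (grey); the dashed line is an adjusted p of 0.05. Ifitm6 lies farthest to the left at -2.04, and Scarf1 and C2 farthest to the right among called genes at 1.04 and 1.03.

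The number of calls rested on single arrays. It was 53, 29 and 35 without knockout curdlan array 1, 2 or 3, and 172, 19 and 43 without wild-type curdlan array 1, 2 or 3. Without both arrays of a number, treated and untreated, it was 54, 19 and 42 for knockout numbers 1, 2 and 3 and 299, 29 and 18 for wild-type numbers 1, 2 and 3. Of the 124 genes, 115 lost the call in at least 1 of these 12 fits, and 9 kept it in all: Slamf1, Hbb-y, Frzb, Spry1, Nckipsd and Swap70 (lower) and Scarf1, Htr2b and Nbas (higher). When only the 6 curdlan-treated arrays were fitted, 15 genes were called, 13 of them among the 124.

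**Figure D2:**
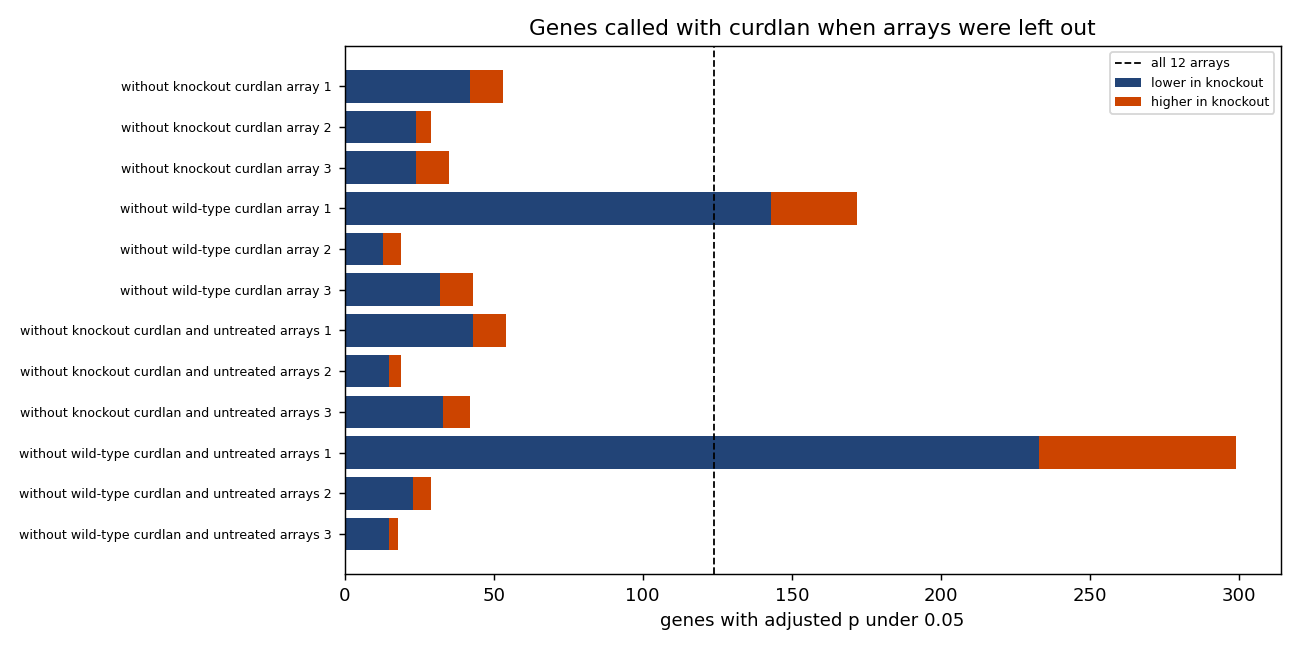
Genes past an adjusted p of 0.05 with curdlan (bars from 0, lower and higher in the knockout stacked) when 1 curdlan array, or the curdlan and untreated arrays of 1 number, were left out; the dashed line marks the 124 genes called with all 12 arrays. The count was between 18 and 54 in 10 of the 12 fits and rose to 172 and 299 without wild-type number 1.

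The disrupted gene, Il2, was lower in knockout cells, and so was the gene for the alpha chain of its receptor. Il2 (chromosome 3, 37120713 to 37125954, in the reference gene table of build GRCm38.p6) read 5.87, 5.80 and 5.63 in curdlan-treated knockout cells and 7.80, 7.22 and 6.74 in wild-type cells. The knockout arrays lay below the wild-type arrays and below the median gene mean. The difference was 2.80-fold (log2 -1.48 ± 0.20, SE, n = 3 and 3, limma adjusted p = 0.0114). No background level was measured, so whether dim signal reduced the size of this difference was not tested. The call was lost without wild-type curdlan array 2 (adjusted p = 0.0538), without both knockout arrays 2 (0.0779) or 3 (0.0568), without both wild-type arrays 2 (0.0738), and with only the 6 arrays (0.085). The labels do not tell whether the probes cover the deleted part of the gene.

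Il2ra (chromosome 2, 11642792 to 11693194) had the same direction at a far higher level. Its values were 11.51, 11.42 and 10.96 in the knockout and 12.13, 12.27 and 12.07 in the wild type, with no overlap. The difference was -0.86 ± 0.14 (SE, limma adjusted p = 0.026), and the call was lost without wild-type curdlan array 2 (0.148) or 3 (0.0592) or knockout curdlan array 2 (0.0765) or 3 (0.063). The promoters of both genes are shown because calcineurin and NFAT lie on the path from Dectin-1 to Il2. They are the 250 bases before the annotated start, from RefSeq on GRCm38.p6, read 5′ to 3′ on the strand of the gene, with GGAAA, the core that NFAT proteins recognise, in capitals on either strand (TTTCC on the reverse). Il2 spans chr3:37125955-37126204 on the minus strand and holds 2 matches, and Il2ra spans chr2:11642542-11642791 on the plus strand and holds 1. GGAAA lies in 55.6% of all 32851 promoters of that length in the table, so a match is a description of these letters.
Il2: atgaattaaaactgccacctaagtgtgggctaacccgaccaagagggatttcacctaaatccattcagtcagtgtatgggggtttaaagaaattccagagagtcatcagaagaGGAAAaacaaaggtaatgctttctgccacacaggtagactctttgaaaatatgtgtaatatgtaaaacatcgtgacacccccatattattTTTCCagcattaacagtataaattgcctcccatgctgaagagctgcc
Il2ra: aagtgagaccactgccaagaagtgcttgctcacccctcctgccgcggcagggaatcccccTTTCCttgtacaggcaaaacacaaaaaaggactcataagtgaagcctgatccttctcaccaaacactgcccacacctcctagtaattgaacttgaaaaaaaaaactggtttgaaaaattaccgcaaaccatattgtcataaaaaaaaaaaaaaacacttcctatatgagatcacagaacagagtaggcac

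The other genes of the IL-2 family did not pass. The list held 21 measured cytokine and receptor genes, of which 2 were called, both lower, and its median difference was 0.01 against 0.02 over all genes. Il2rb, the beta chain, read 5.39, 5.50 and 5.40 in the knockout and 5.56, 5.53 and 5.35 in the wild type, which overlapped (adjusted p = 0.858). Il15, whose product shares the beta and gamma chains, read 9.57, 10.04 and 9.44 against 9.43, 9.46 and 9.84 (adjusted p = 0.891). Its presenting receptor Il15ra and the related cytokine Il21 did not pass either (adjusted p = 0.685 and 0.94). Il2rg had no probe set with a single symbol and was not analysed here.

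Downstream of the receptor, 0 of 18 measured genes of the JAK-STAT5 and SOCS list were called. Knockout arrays lay wholly below the wild type for 4 and wholly above for 0 (all genes: 6.84% and 7.71%). At an unadjusted p under 0.05, 3 were lower and 0 higher (all genes: 6.13% and 5.44%). Stat5a, a transcription factor that IL-2 activates, read 11.13, 11.15 and 10.38 in the knockout and 11.54, 11.69 and 11.37 in the wild type, a difference of -0.65 ± 0.20 (SE) that did not pass (adjusted p = 0.207). Stat5b differed by -0.37 (adjusted p = 0.062) and the kinase Jak2 by -0.38 (0.222), and neither passed. The feedback inhibitors Cish and Socs2, which STAT5 induces, differed by -0.13 and -0.19 and also did not pass (adjusted p = 0.502 and 0.489). Among 21 measured genes listed as STAT5 targets, Il2ra was the 1 called and the median was -0.07. In that list 8 had knockout arrays wholly below the wild type and 1 wholly above (all genes: 6.84% and 7.71%). Whether STAT5 raises or lowers each member in these cells was not tested. Spib, an ETS transcription factor of plasmacytoid and B lineage cells, had the largest difference of that list (-1.18, adjusted p = 0.0661) and did not pass.

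Several other genes for signalling proteins were called lower. Spry1, an inhibitor of receptor tyrosine kinase signalling, read 6.75, 6.63 and 6.42 in the knockout and 7.52, 7.48 and 7.82 in the wild type (-1.01 ± 0.11, SE, adjusted p = 0.00337), and kept its call in every fit that left out arrays. Spry1 starts 0.52 Mb from the start of Il2, so the limit given below for neighbours of Il2 applies to it. Dusp5, a phosphatase of ERK induced by cytokines, read 10.27, 10.22 and 10.04 against 10.87, 10.96 and 10.70 (-0.67, adjusted p = 0.026), a call lost without any knockout curdlan array (0.0616 to 0.0852) or wild-type curdlan array 2 (0.148). Pik3r1, a regulatory subunit of phosphoinositide 3-kinase, differed by -0.46 ± 0.05 (SE, adjusted p = 0.00579), with 11.29 to 11.44 in the knockout and 11.77 to 11.88 in the wild type, and lost the call without both wild-type arrays 2 (0.0557). Swap70, a Rac-binding protein that dendritic cells use to move, differed by -0.47 ± 0.05 (SE, adjusted p = 0.00517), and Nckipsd, an adaptor that binds Nck, by -0.48 ± 0.06 (SE, adjusted p = 0.00517). The differences of Pik3r1, Swap70 and Nckipsd were smaller than the median called size of 0.59, with an SE of 0.05 or 0.06.

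The largest falls among named genes were those of Ifitm6, Treml4, Tespa1, Il2, Itgb8 and Cd209a. Ifitm6, of the interferon-induced transmembrane family, read 6.60, 5.61 and 6.24 in the knockout and 8.37, 8.23 and 7.98 in the wild type. This 4.12-fold difference (-2.04 ± 0.37, SE, adjusted p = 0.035) was the largest fall among the called genes, but leaving out any 1 curdlan array ended the call (adjusted p = 0.0658 to 0.169). Cd209a, the mouse lectin named DC-SIGN, read 7.09, 6.96 and 6.50 against 8.16, 8.35 and 8.31 (-1.42 ± 0.27, SE, adjusted p = 0.0396), and any 1 curdlan array left out ended that call too (0.0535 to 0.201). Treml4, a TREM-like receptor of splenic dendritic cells and macrophages, read 7.74, 7.65 and 8.23 against 9.04, 9.73 and 9.46 (-1.54 ± 0.29, SE, adjusted p = 0.0388). Its call was kept without wild-type curdlan array 1 and lost without any of the other 5 curdlan arrays (0.0696 to 0.215). For each of these genes the 3 knockout arrays lay below the 3 wild-type arrays, which the rule for naming the largest falls required.

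Itgb8 encodes the integrin beta chain that pairs with alpha V to activate latent TGF-beta. It read 8.10, 7.88 and 7.67 in the knockout and 8.87, 9.78 and 9.42 in the wild type, a 2.78-fold difference (-1.47 ± 0.27, SE, adjusted p = 0.0345). Dpp4 (CD26), a surface peptidase found on conventional dendritic cells, read 8.57, 9.06 and 8.64 against 9.57, 10.15 and 10.16 (-1.20 ± 0.23, SE, adjusted p = 0.0423). For both genes the call was lost without any curdlan array except wild-type array 1, with adjusted p up to 0.181 for Itgb8 and 0.219 for Dpp4. Tespa1, an adaptor of thymocyte antigen receptor signalling, read 6.15, 5.31 and 5.27 against 7.02, 7.52 and 6.75 (-1.52 ± 0.28, SE, adjusted p = 0.036), and lost its call without any curdlan array except knockout array 1 (0.0535 to 0.197). The values of Tespa1 in knockout arrays 2 and 3 lay near the lower quartile of the arrays.

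Of 15 measured genes of the chemokine receptor and migration list, 0 were called by limma, with 2 lower and 1 higher at an unadjusted p under 0.05 and a median of 0.03. Ccr7, the main lymph node homing receptor, differed by -0.35 and did not pass (adjusted p = 0.572). Outside that list, and picked after their values were seen, 3 called genes with roles in cell movement or adhesion were lower. Gpr183 (EBI2), the oxysterol receptor that positions dendritic cells in lymphoid tissue, read 10.01, 9.68 and 9.55 in the knockout and 10.79, 10.75 and 10.34 in the wild type (-0.88 ± 0.13, SE, adjusted p = 0.0202). Its call was lost without knockout curdlan array 2 (0.077) or 3 (0.063) or wild-type curdlan array 2 (0.106). Ptger4, a receptor for prostaglandin E2, differed by -0.43 (adjusted p = 0.0426), a call kept without wild-type curdlan array 1 and lost without each other curdlan array (0.0884 to 0.233). Cytip, which loosens integrin adhesion in activated dendritic cells, read 11.23 to 11.31 against 11.79 to 11.86 (-0.55 ± 0.07, SE, adjusted p = 0.0114) and lost its call without wild-type curdlan array 2 (0.0662).

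**Figure D3:**
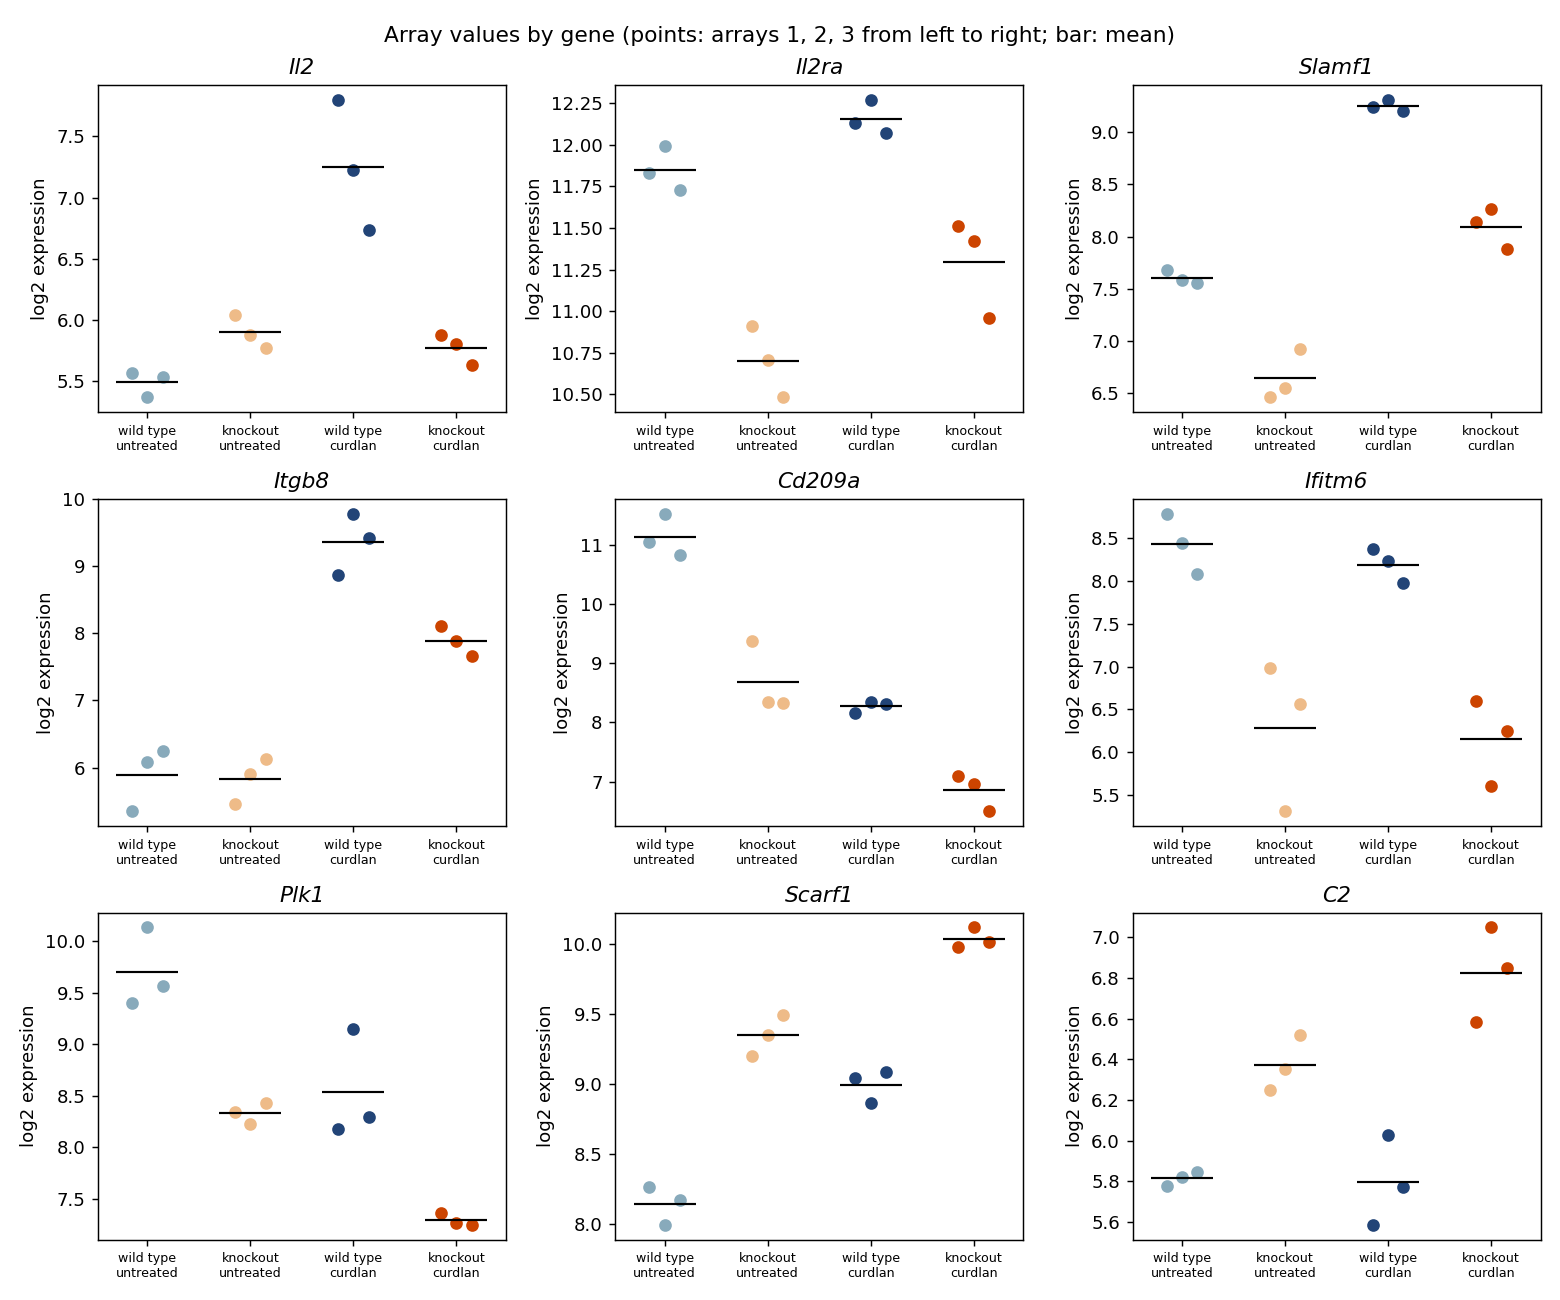
Log2 expression (y) of 9 genes on the 12 arrays in 4 groups; points are arrays 1 to 3 from left to right and bars are group means, with a separate y range per gene that does not start at 0. The 9 genes are among the 124 called with curdlan, all of which had no overlap between knockout and wild-type arrays. With curdlan, Ifitm6 lay at 5.61 to 6.60 in the knockout against 7.98 to 8.37, and Scarf1 at 9.98 to 10.12 against 8.86 to 9.08.

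Of 24 co-stimulation and maturation genes, 2 were called, both lower. Slamf1 (CD150), a homophilic receptor of activated lymphocytes and dendritic cells, read 8.14, 8.26 and 7.88 in the knockout and 9.24, 9.31 and 9.21 in the wild type. The difference was 2.23-fold (-1.16 ± 0.12, SE, adjusted p = 0.0031), and the gene passed under all 21 other settings listed with the methods, as did Scarf1 and Nbas. Tnfsf9 (4-1BB ligand) read 8.05, 8.38 and 7.91 against 8.89, 8.64 and 8.73 (-0.64 ± 0.11, SE, adjusted p = 0.0298), a call kept without knockout curdlan array 2 and lost without each of the other 5 (0.0538 to 0.11). Of the 24 genes, 12 had knockout arrays wholly below the wild type and 0 wholly above (all genes: 6.84% and 7.71%). At an unadjusted p under 0.05, 11 were lower and 0 higher (all genes: 6.13% and 5.44%). The median was -0.30.

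Most of the familiar maturation markers did not pass on their own. Tnfrsf4 (OX40) differed by -1.04 (adjusted p = 0.0613), Cd70 by -0.70 (0.0961) and the 4-1BB receptor Tnfrsf9 by -0.44 (0.0524). Cd80, Cd83 and Cd86, which mark mature dendritic cells, differed by -0.47, -0.58 and -0.44 (adjusted p = 0.262, 0.333 and 0.344). Cd40, Icam1 and Cd274 (PD-L1) were at -0.24, 0.03 and 0.08. The list called 1 to 2 genes when single arrays were left out.

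Most cell cycle genes had lower values in knockout cells, and 4 passed the test. Of 39 measured, 37 had a negative difference (94.9%, against 42.0% of all genes). Knockout arrays lay wholly below the wild type for 29 (74.4%, against 6.84% of all genes). The test called 4, all lower, and the median was -0.61. Plk1, the kinase of mitotic entry, read 7.37, 7.27 and 7.25 in the knockout and 8.18, 9.15 and 8.30 in the wild type (-1.25 ± 0.23, SE, adjusted p = 0.036). Top2a, the topoisomerase that untangles chromosomes, read 7.74, 7.49 and 7.80 against 8.44, 9.51 and 8.92 (-1.27 ± 0.24, SE, adjusted p = 0.0426). Ccna2, the cyclin of S phase and mitosis, read 8.28, 8.06 and 8.44 against 9.13, 10.04 and 9.35 (-1.24 ± 0.22, SE, adjusted p = 0.032). Ccna2 starts 0.56 Mb from the start of Il2, so the limit given below for neighbours of Il2 applies to it. Tyms, which makes thymidylate for DNA synthesis, differed by -0.61 (adjusted p = 0.0314).

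Wild-type array 2 had the highest wild-type level of each of these 4 genes. The list had 0 called genes without any 1 knockout curdlan array or without wild-type curdlan array 2 or 3, and 12 without wild-type curdlan array 1. Its median stayed between -0.74 and -0.43 when single arrays or both arrays of a number were left out; the smallest size was without wild-type array 2. It had 0 calls with only the 6 arrays, 1 with the sex covariate, 8 with the random culture block, 14 with the replicate block, 17 without both wild-type arrays 1 and 32 with array weights. The second probe set of Top2a, far dimmer, differed by -0.23. Mki67, the antigen used to stain dividing cells, differed by -0.61 and did not pass (adjusted p = 0.236), and Pcna, the replication clamp, differed by 0.01.

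The promoters of Top2a and Plk1 are shown because CCAAT boxes, bound by NF-Y, are a known feature of genes expressed in G2 and mitosis. They are again 250 bases before the start, 5′ to 3′ on the strand of the gene, from RefSeq on GRCm38.p6, with CCAAT in capitals on either strand (ATTGG on the reverse). Top2a spans chr11:99024190-99024439 on the minus strand and holds 6 matches, and Plk1 spans chr7:122159185-122159434 on the plus strand and holds 1. CCAAT was found in 24 of 34 promoters of the cell cycle list (70.6%) and in 33.9% of all promoters, as a description. It lay in 42.9% of 105 promoters of genes called lower and in 4 of 28 promoters of genes called higher. The STAT5 motif TTCNNNGAA lay in 8 of the 105 (7.62%) and in 7.02% of all promoters.
Top2a: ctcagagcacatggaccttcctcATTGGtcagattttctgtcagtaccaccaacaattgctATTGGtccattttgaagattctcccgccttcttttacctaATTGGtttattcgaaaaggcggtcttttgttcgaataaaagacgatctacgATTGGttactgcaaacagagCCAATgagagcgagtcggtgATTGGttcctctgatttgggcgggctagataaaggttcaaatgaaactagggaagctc
Plk1: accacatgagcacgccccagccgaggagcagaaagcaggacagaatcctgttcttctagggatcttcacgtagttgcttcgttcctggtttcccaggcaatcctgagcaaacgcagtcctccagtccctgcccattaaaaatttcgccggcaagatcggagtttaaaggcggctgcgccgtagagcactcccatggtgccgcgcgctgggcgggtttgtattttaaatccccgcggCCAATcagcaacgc

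Other genes tied to division, outside the list and named after their values were seen, were called lower too. Pclaf, a PCNA-binding factor, read 8.04, 7.94 and 8.31 in the knockout and 8.95, 9.71 and 9.24 in the wild type (-1.20 ± 0.18, SE, adjusted p = 0.0202). Its call was lost without knockout curdlan array 1 (0.0678) or 2 (0.0852) or wild-type curdlan array 2 (0.067) or 3 (0.0553). Prc1, which bundles the central spindle, differed by -1.10 (adjusted p = 0.0429), Stmn1, a tubulin-binding protein, by -1.08 (0.032) and Ube2c, the ubiquitin-conjugating enzyme of mitotic exit, by -0.96 (0.0202). Ezh2, the methyltransferase of Polycomb complex, differed by -0.48 (0.0426). The calls of Prc1, Stmn1 and Ezh2 were lost without any curdlan array except wild-type array 1 (0.0784 to 0.215), and that of Ube2c without knockout curdlan array 2 (0.0765) or 3 (0.0608).

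A set of 22 measured histone genes, whose symbols start with H2ac, H2bc, H3c or H4c, was picked after the values were seen. Of these, 4 were called, all lower (all genes: 0.517% called lower), and the median was -0.31. A negative difference was seen for 19 (all genes: 42.0%). Knockout arrays lay wholly below the wild type for 13 and wholly above for 1 (all genes: 6.84% and 7.71%). The called genes were H2ac4 at -1.29 (adjusted p = 0.036), H2bc3 at -1.13 (0.0224), H2ac15 at -0.74 (0.0224) and H2bc18 at -0.66 (0.0329). H2ac4 read 5.98, 5.74 and 6.17 in the knockout and 6.82, 7.86 and 7.08 in the wild type. H2bc3 lost its call without knockout curdlan array 2 (0.0852) or 3 (0.0727), and the others without every knockout curdlan array and without wild-type arrays 2 and 3 (0.0527 to 0.138). These genes have near-identical copies that probes may share, so which copy was measured is uncertain.

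Sterol synthesis genes had small negative differences, of which 2 passed. Of 23 measured genes of cholesterol and fatty acid synthesis, 22 had a negative difference (95.7%, against 42.0% of all genes). Knockout arrays lay wholly below the wild type for 12 (52.2%, against 6.84% of all genes). At an unadjusted p under 0.05, 15 were lower (all genes: 6.13%). The test called 2, and the median was -0.25. Idi1, an isomerase of the mevalonate pathway, read 10.50, 10.38 and 10.65 in the knockout and 10.92, 11.12 and 10.99 in the wild type (-0.50 ± 0.08, SE, adjusted p = 0.0224). Hmgcs1, the synthase that opens the pathway, read 10.72, 10.62 and 10.72 against 10.95, 11.11 and 11.03 (-0.34 ± 0.07, SE, adjusted p = 0.0477). Idi2, the paralog beside Idi1, differed by -1.02 ± 0.13 (SE, adjusted p = 0.0114), from 4.93 to 5.33 in the knockout and 6.05 to 6.20 in the wild type. Its second probe set, about as dim, differed by -0.47, so the size for Idi2 is uncertain. The knockout values lay near the lower quartile of the arrays, and probes shared with Idi1 were not tested for. The calls of Idi1 were lost without knockout curdlan arrays 1 or 2 or wild-type curdlan arrays 2 or 3 (0.0592 to 0.115), of Hmgcs1 without each curdlan array but wild-type array 1 (0.0884 to 0.247), and of Idi2 without wild-type curdlan array 2 (0.0585). The list had 0 to 3 called genes over the fits that left out arrays.

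Several further genes called lower belong to none of these groups. Hbb-y, an embryonic globin, read 5.28, 5.16 and 5.28 in the knockout and 6.28, 6.26 and 5.92 in the wild type (-0.92 ± 0.09, SE, adjusted p = 0.0031). The knockout values lay near the lower quartile of the arrays. Frzb, a secreted Wnt antagonist, was also dim, at 5.22 to 5.39 against 5.94 to 6.18 (-0.71 ± 0.07, SE, adjusted p = 0.0031). Gng4, a G protein gamma subunit, read 7.68 to 8.31 against 8.61 to 9.04 (-0.89, adjusted p = 0.0242), and Gprc5a, an orphan receptor induced by retinoic acid, read 6.72, 6.26 and 6.05 against 7.61, 7.27 and 7.11 (-0.99, adjusted p = 0.0224). Both lost the call without knockout curdlan array 2 or 3 (each 0.0681 to 0.0852) or wild-type curdlan array 2 (0.135 and 0.106). Nedd4, a ubiquitin ligase, and Asb2, a component of another ubiquitin ligase, each differed by -1.05 (both adjusted p = 0.0202), and both lost the call without wild-type curdlan array 2 (0.106 for each) or knockout curdlan array 2 (0.0852 and 0.0835) or 3 (0.0696 and 0.0661), and Asb2 also without wild-type curdlan array 3 (0.0592). Rgs3, a regulator of G protein signalling, differed by -0.96 on the probe set used and by -0.02 on its second, dimmer probe set, so the 2 disagree; its call was lost without any knockout curdlan array (0.0553 to 0.0752) or wild-type curdlan array 2 (0.135).

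Of the 21 genes called higher in the knockout, Scarf1 and C2 exceeded 2-fold. Scarf1, a scavenger receptor that takes up apoptotic cells, read 9.98, 10.12 and 10.02 in the knockout and 9.04, 8.86 and 9.08 in the wild type. The difference was 2.06-fold (1.04 ± 0.09, SE, adjusted p = 0.0028), the lowest adjusted p of the comparison, and stayed at or under 0.0208 over the same settings. C2, the complement component cleaved in the classical and lectin pathways, read 6.58, 7.05 and 6.85 against 5.59, 6.03 and 5.77 (2.04-fold, 1.03 ± 0.13, SE, adjusted p = 0.00704). C2 lay below the median gene mean in the wild type, and its call was lost without both arrays of knockout number 2 (0.053) or of wild-type number 3 (0.0631). Of 12 measured complement genes, C2 was the 1 called.

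Htr2b, a serotonin receptor found on monocyte-derived cells, read 7.51, 7.66 and 7.78 in the knockout and 6.54, 6.85 and 6.87 in the wild type (0.89 ± 0.10, SE, adjusted p = 0.00493). Tmeff1, a transmembrane protein with follistatin domains, read 8.95, 9.22 and 9.37 against 8.26, 8.45 and 8.18 (0.88 ± 0.12, SE, adjusted p = 0.0124), a call lost without knockout curdlan array 2 (0.0553). Nbas, needed for transport between Golgi and endoplasmic reticulum, read 9.52, 9.67 and 9.58 against 8.92, 9.01 and 9.06 (0.59 ± 0.06, SE, adjusted p = 0.00337). Its 3 probe sets were all higher in the knockout, by 0.38, 0.54 and 0.59.

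The remaining rises were smaller. Clec12a, an inhibitory lectin that senses dead cells, read 10.61, 10.82 and 10.86 in the knockout and 10.21, 10.24 and 10.10 in the wild type (0.58, adjusted p = 0.0429), and Lat, the adaptor of T cell receptor signalling, read 9.51, 9.65 and 9.79 against 8.80, 9.06 and 9.23 (0.62, adjusted p = 0.0426). Leaving out any 1 curdlan array ended the call of Clec12a (0.0616 to 0.165), and any but wild-type array 3 that of Lat (0.0658 to 0.177). Cysltr2, a cysteinyl leukotriene receptor, differed by 0.54 (0.0141) and Abcc5, an efflux transporter, by 0.46 (0.0248). The call of Cysltr2 was lost without knockout curdlan array 2 (0.0553) or 3 (0.0528) or wild-type curdlan array 3 (0.052), and that of Abcc5 without each curdlan array but wild-type array 1 (0.0553 to 0.144). Airn (0.64, adjusted p = 0.032) and Igf2r (0.41, 0.0224) overlap on chromosome 17 in opposite directions, so their signals may not be separate; any 1 curdlan array left out ended the call of Airn (0.0515 to 0.179), and knockout curdlan arrays 2 or 3 or wild-type curdlan arrays 2 or 3 that of Igf2r (0.0592 to 0.115).

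**Figure D4:**
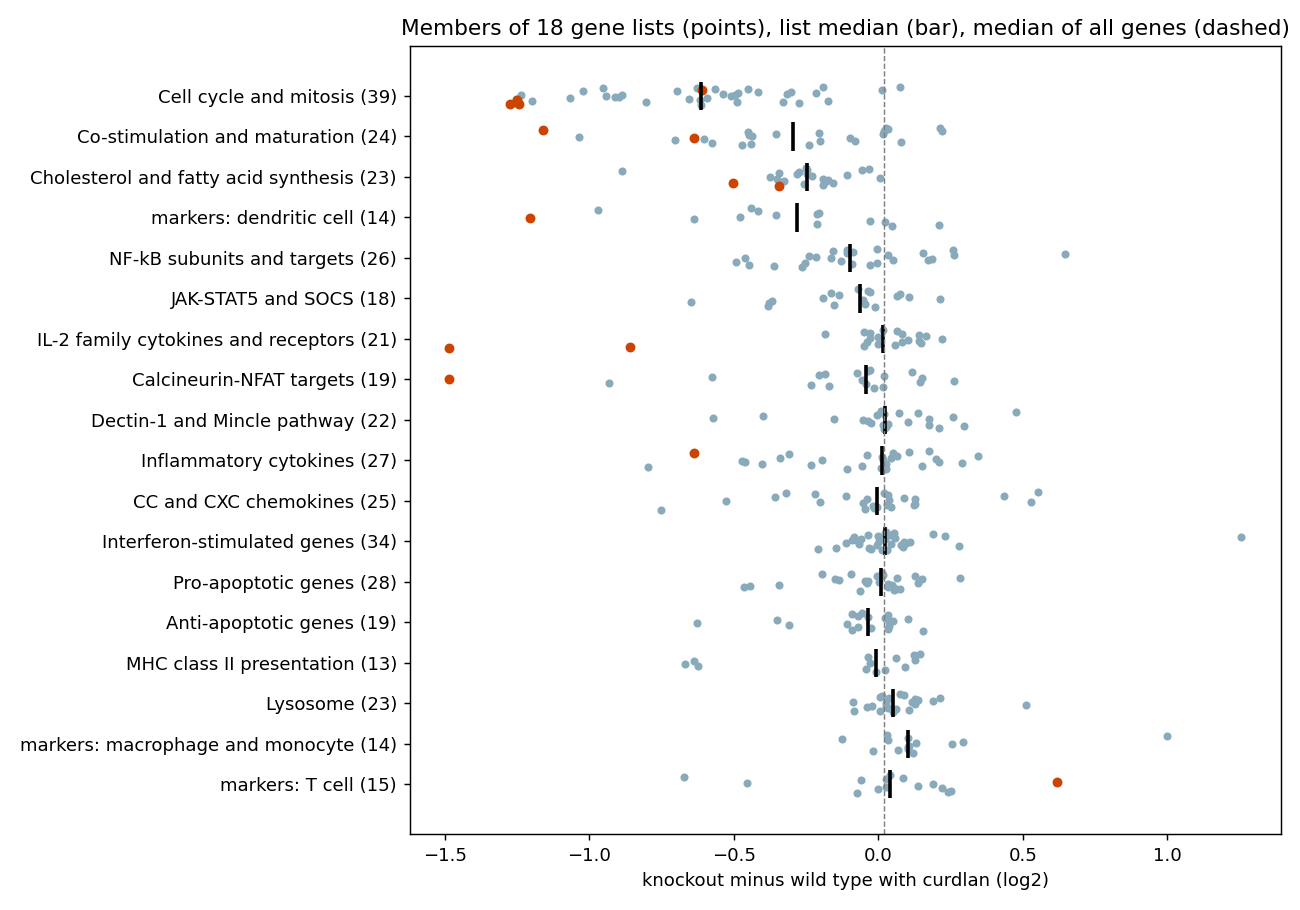
Knockout minus wild type with curdlan (x, log2) for the measured members of 18 gene lists, with the number measured in brackets; points are genes (red: adjusted p under 0.05), black bars are list medians and the dashed line is the median of all genes at 0.02. The cell cycle list has its median at -0.61, and the interferon-stimulated, Dectin-1, pro-apoptotic and anti-apoptotic lists have medians of 0.02, 0.02, 0.01 and -0.03.

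Death genes, to which the title of the study refers, gave 0 calls among 28 pro-apoptotic, 19 anti-apoptotic and 17 pyroptosis or necroptosis genes by limma. At an unadjusted p under 0.05, 3 pro-apoptotic and 3 anti-apoptotic genes were lower, and 3 pyroptosis or necroptosis genes were higher; over all genes, 6.13% were lower and 5.44% higher at that level. The medians were 0.01, -0.03 and 0.08. Pmaip1 (NOXA), a BH3-only activator of cell death, averaged 8.87 ± 0.14 (SD, n = 3) in the knockout and 9.32 ± 0.04 in the wild type, whose arrays did not overlap, a difference of -0.44 ± 0.09 (SE) with an adjusted p of 0.05003 that did not pass; it passed under 8 of the 21 settings listed with the methods, all with a negative difference. Bmf, another BH3-only gene, read 8.53 to 8.65 against 8.96 to 9.09, also without overlap (-0.47, adjusted p = 0.137). Bcl2l11 (BIM), also BH3-only, differed by -0.34 (adjusted p = 0.268). Birc5 (survivin), which is also a mitotic gene, differed by -0.63 and did not pass (adjusted p = 0.206), and the survival genes Bcl2, Bcl2l1 and Mcl1 were at 0.15, -0.09 and -0.03.

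The receptor that curdlan engages and the Dectin-1 and Mincle pathway list gave 0 calls. Clec7a itself read 12.53, 12.54 and 12.69 in the knockout and 12.51, 12.60 and 12.59 in the wild type (adjusted p = 0.943). Of 22 Dectin-1 and Mincle pathway genes, 0 were called, with 2 lower and 6 higher at an unadjusted p under 0.05 (all genes: 6.13% and 5.44%) and a median of 0.02. Map3k14 (NIK), the kinase of the non-canonical NF-kB branch, differed by -0.57 (adjusted p = 0.124) and its partner Relb by -0.45 (0.14), neither passing. Of 26 NF-kB subunits and targets, 0 were called and 8 were lower and 1 higher at an unadjusted p under 0.05, with a median of -0.10. Of 19 calcineurin and NFAT targets, Il2 was the 1 called, and 4 were lower and 0 higher at an unadjusted p under 0.05. Knockout arrays lay wholly below the wild type for 4 of the 19 and wholly above for 0 (all genes: 6.84% and 7.71%).

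Cytokine and interferon genes mostly overlapped between genotypes. Of 27 inflammatory cytokine genes, Tnfsf9 was the 1 called. At an unadjusted p under 0.05, 4 of the 27 were lower and 0 higher (all genes: 6.13% and 5.44%). Knockout arrays lay wholly below the wild type for 4 and wholly above for 0 (all genes: 6.84% and 7.71%). Il6 differed by -0.80 (adjusted p = 0.134), Il12b by -0.47 (0.768) and Tnf by 0.15 (0.725). Of 25 chemokine genes and 34 interferon-stimulated genes, 0 and 0 were called, with 1 lower and 1 higher chemokine gene and 0 lower and 1 higher interferon-stimulated gene at an unadjusted p under 0.05. Iigp1, an interferon-induced GTPase, read 9.12, 10.20 and 8.50 in the knockout and 7.85, 7.93 and 8.27 in the wild type, and its difference of 1.25 did not pass (adjusted p = 0.163). MHC class II genes gave 0 calls of 13, with 2 lower and 1 higher at an unadjusted p under 0.05. Lysosome genes gave 0 calls of 23, with a median of 0.05. Of these, 8 had knockout arrays wholly above the wild type and 0 wholly below (all genes: 7.71% and 6.84%).

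Marker lists of cell types were compared between the genotypes as well. The 14 dendritic cell markers, all above the median gene mean, had a summed level per array, given as the list mean, of 10.1 to 10.3 in the knockout and 10.4 to 10.6 in the wild type, without overlap. Of these markers 11 had a negative difference, and the median was -0.28. Knockout arrays lay wholly below the wild type for 6 and wholly above for 0 (all genes: 6.84% and 7.71%). At an unadjusted p under 0.05, 6 were lower and 0 higher (all genes: 6.13% and 5.44%). Dpp4 was the 1 called. The defining genes Itgax (CD11c), H2-Ab1 and Zbtb46 differed by 0.05, 0.02 and -0.21 (adjusted p = 0.84, 0.936 and 0.372). The 14 macrophage and monocyte markers had overlapping means of 11.05 to 11.40 in the knockout and 10.95 to 11.14 in the wild type. Of these markers 2 had a negative difference (14.3%, against 42.0% of all genes), and the median was 0.10. Knockout arrays lay wholly above the wild type for 1 and wholly below for 0. None of them was called, with 0 at an unadjusted p under 0.05. Means of 10 markers of the conventional subset cDC2 were 8.69 to 8.71 against 8.80 to 8.87, without overlap, and Cd209a was called. The median difference of the cDC2 list was -0.03. Its knockout arrays lay wholly below the wild type for 2 members and wholly above for 3, so the list did not move as a whole. Means of 8 plasmacytoid markers were 7.49 to 7.56 against 7.64 to 7.84, also without overlap. Of these 8, 5 had a negative difference, and the median was -0.03. Means of cDC1, plasma cell and stroma markers overlapped. The 12 stem and precursor markers had means of 6.49 to 6.79 against 6.88 to 6.92, led by Cd34 at -1.33 (adjusted p = 0.121). Means of T cell, B cell, NK cell, neutrophil, mast cell and erythroid markers lay below the median gene mean on all 6 arrays, and Lat was the 1 called gene of these lists. The part of these marker levels in the gene differences was not tested.

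The 124 genes were then set beside the untreated comparison, which uses other arrays. There, 283 genes were called (1.42%). Of the 124, 64 were called in both, all in the same direction, which is 51.6% of the curdlan calls and 22.6% of the untreated calls. The sign was the same for 122 of the 124; the exceptions were Il2 and Olfr920. A treated and an untreated array of one number and genotype correlated at 0.37 to 0.60 after group means were removed, so the 2 comparisons are not independent. The interaction, which tests whether the genotype difference with curdlan differed from that without it, gave 0 of 19937 genes at an adjusted p of 0.05 (limma; lowest 0.357), with 552 at an unadjusted p under 0.05. With the culture as a fixed block, chosen after the data were seen, it again gave 0, with 1094 at an unadjusted p under 0.05; the lowest adjusted p was 0.0671, for Hbb-y, followed among the genes below by Il2 (0.108) and Macc1 (0.24). A call in 1 comparison and not in the other is therefore not shown to be a difference between them.

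**Figure D5:**
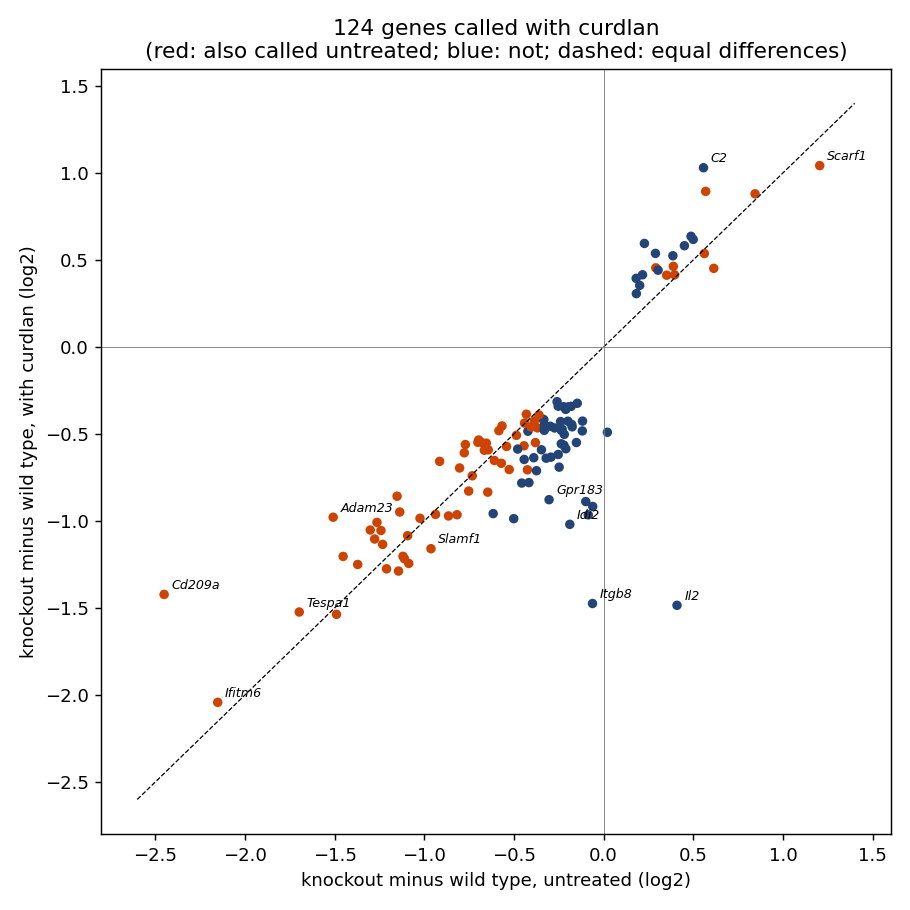
Knockout minus wild type untreated (x, log2) against the same with curdlan (y, log2) for the 124 genes called with curdlan; red genes were also called untreated, blue were not, and the dashed line marks equal differences. Il2 and Itgb8 lie lowest of the genes near or above 0 on the x axis, at -1.48 and -1.47 with curdlan.

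For many of the largest differences the untreated and curdlan values were close. Ifitm6 was at -2.15 untreated and -2.04 with curdlan, Treml4 at -1.49 and -1.54, and Scarf1 at 1.21 and 1.04. Plk1 was at -1.37 and -1.25, and the cell cycle list had 18 of 39 genes called untreated (all genes: 1.42%) with a median of -0.92. Cd209a differed by -2.45 untreated, where knockout arrays read 9.38, 8.35 and 8.33 and wild-type arrays 11.05, 11.53 and 10.83. Curdlan lowered Cd209a in both genotypes, by 1.84 in the knockout and by 2.87 in the wild type, on the log2 scale. The interaction of Cd209a was 1.03 ± 0.38 (SE) and did not pass.

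Other genes had a small difference untreated and a larger one with curdlan. Itgb8 read 5.46, 5.90 and 6.13 in untreated knockout cells and 5.35, 6.08 and 6.25 in untreated wild-type cells, a difference of -0.06. Curdlan raised Itgb8 by 3.46 ± 0.27 (SE, adjusted p = 9.34e-06) in the wild type against 2.05 ± 0.27 (SE, adjusted p = 0.000518) in the knockout; the interaction was -1.41 ± 0.38 and did not pass. The curdlan effect was called for 19.6% of genes in wild-type and 22.5% in knockout cells, and its arrays are shared with the genotype comparison. Macc1 (-0.09 untreated, -0.96 with curdlan), Idi2 (-0.19, -1.02), Gng4 (-0.10, -0.89) and Hbb-y (-0.06, -0.92) had the same pattern, with interactions of -0.88, -0.83, -0.79 and -0.86, of which 0 passed without the block (adjusted p 0.357 or above) or with it (0.0671 to 0.465). The interferon-stimulated list had the reverse order, with a median of 0.36 untreated and 0.02 with curdlan. Untreated, 6 of its 34 genes were called (all genes: 1.42%), and with curdlan 0 were (all genes: 0.622%). Since the interaction gave 0 calls over all genes, a difference between the treatments is not shown for them.

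Genes near Il2 were looked at because the disrupted allele lies there. Within 10 Mb on either side, 87 genes were measured and 6 were called with curdlan (6.9%, against 0.622% of all genes): Mccc1, Ccna2, Il2, Cetn4, Spry1 and Ankrd50, all lower. Cetn4 starts 0.19 Mb from the start of Il2, Spry1 0.52 Mb, Ccna2 0.56 Mb, Mccc1 1.16 Mb and Ankrd50 1.33 Mb. Cetn4, a centrin of centrosomes, read 7.24, 7.07 and 6.99 in the knockout and 7.66, 7.64 and 7.69 in the wild type (-0.56, adjusted p = 0.0234). Its second, dimmer probe set differed by -1.44, in the same direction but over 1.5 times as large. Ankrd50, an endosomal recycling protein, read 7.61, 7.70 and 7.57 against 8.09, 8.10 and 7.94 (-0.41, adjusted p = 0.0202). Mccc1, a subunit of a leucine-degrading carboxylase, differed by -0.43 (adjusted p = 0.0298). Their calls were lost without wild-type curdlan array 2 (0.106, 0.106 and 0.165) and without knockout curdlan array 3 (0.0772, 0.0697 and 0.0787), among other curdlan arrays. All but Il2 were also called untreated. A targeted allele moved between strains can carry flanking DNA of the donor strain, and its effect and that of the lost gene cannot be told apart for these neighbours.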

How the data were processed

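RNA from 12 samples was measured on 1 array each, from 100 ng of total RNA. The deposited values are log2 expression levels per probe set that the authors made with RMA, per the submitters' processing notes; the sources used here give neither the version nor which arrays were normalised jointly. Values were used as deposited. Of 34760 probe sets, 21640 carried 1 gene symbol, 1321 several and 11799 were not in the probe table; only the first were used. For 954 genes with several such probe sets, the one with the highest mean over the 12 arrays was taken, which gave 19937 genes. A model with 1 mean per group used every array (limma 3.58.1, R 4.3.3; 8 residual degrees of freedom, two-sided moderated test), tested beforehand on simulated data, and p-values were adjusted by Benjamini-Hochberg over all genes. SD and SE cover 3 arrays per group, whose number limits the precision. Gene positions and promoters are from RefSeq, GRCm38.p6.

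Named genes were Il2, its relatives and Clec7a, up to 15 genes with the largest called rise and 15 with the largest called fall without overlap (leaving out predicted genes and olfactory receptors), leading members of each of 51 gene lists (772 distinct genes measured), and called genes within 10 Mb of Il2. Other named genes were chosen after their values were seen. The comparison and the lists were chosen with earlier results of these data known. Lists are described by counts and medians. Treated and untreated arrays of one number and genotype correlated after group means were removed (0.37 to 0.60), so the number was taken to mark 1 culture within a genotype. Alternatives covered the arrays fitted, the replicate number as a block, a random culture block, a filter on dim genes, the mean of a gene's probe sets, arrays shifted to one median, a repeated quantile normalization, an intensity trend, array weights and leaving out arrays.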

Additional observations from a re-analysis of the deposited data

Results flagged for a closer look

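Il2 had genotype differences of opposite sign in the 2 treatments, of which only that with curdlan was called. The untreated difference did not pass (limma adjusted p = 0.524). With curdlan every knockout array lay below every wild-type array (-1.48), while untreated every knockout array lay above every wild-type array (0.41: 6.04, 5.88 and 5.77 against 5.56, 5.37 and 5.53). The interaction was -1.89 ± 0.28 (SE), which did not pass after adjustment over all genes (limma adjusted p = 0.357, and 0.108 with the culture as a fixed block). All values other than those of curdlan-treated wild-type arrays 1 and 2 lay below the median gene mean of 6.96.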

How the results depend on the processing

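The count of 124 genes called with curdlan became 15 with only the 6 curdlan-treated arrays, 197 of 9969 genes at or above the median mean, and 1402 with array weights, of which 62.9% were lower against 83.1% in the reported fit; the weights ran from 0.35 (wild-type curdlan array 1) to 3.73 (wild-type curdlan array 2). It ran from 18 to 299 when arrays were left out, and the interaction count ran from 0 to 3 (2 without wild-type curdlan array 1 or 3, and 3 without both wild-type arrays 3). The remaining alternatives gave 121 to 180 genes, and the sex covariate 88. Same-numbered curdlan arrays of the 2 genotypes had deviations that correlated at 0.17, -0.13 and 0.33, and untreated ones at 0.22, 0.11 and 0.25. Since 1 curdlan pair was below 0.1, the numbers were not taken to pair the genotypes; with the replicate number as a block the count was 450, with all 124 genes among them, and with the block and only the 6 arrays, chosen after the data were seen, it was 57. Each untreated knockout array correlated best with the wild-type array of its own number, while curdlan knockout array 2 correlated best with wild-type array 1 (0.21). The replicate block, the random culture block and the fixed culture block each left the interaction count at 0. Of the values of single named genes under the alternatives, 2861 kept their direction and side of the threshold, 1143 lost the call, 56 gained it and 0 changed sign. The cause of these changes was not tested. The 3 arrays per group and values near the lower quartile limit what can be measured for dim genes such as Il2, Idi2 and Hbb-y.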
